A study of Homo sapiens with 40 samples.

Results

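The genes of glycolysis and of the response to low oxygen were followed in RKO, a cell line established from a human carcinoma of the colon, across 10 groups of libraries. A fixed list of 37 symbols set the members, and all 37 were found among the 19962 genes of the count table. They comprise 17 glycolytic enzymes, 3 regulatory kinases, 3 genes of the hypoxia-inducible factor (HIF) pathway and 14 other hypoxia-response genes. A filter on low counts left 11428 genes for testing, of which 34 are members. CA9, EGLN3 and BNIP3 did not pass that filter.

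Glycolysis splits glucose into pyruvate, which lactate dehydrogenase can turn into lactate. HIF1A is the oxygen-regulated subunit of the factor HIF-1. Prolyl hydroxylases such as EGLN1 and EGLN3 mark HIF1A for degradation when oxygen is present, and in low oxygen HIF-1 raises many glycolytic enzymes together with secreted factors, collagen-modifying enzymes and mitophagy genes. HIF1A protein is controlled mostly by its stability, so its mRNA level need not follow its activity, and many tumour lines keep high glycolysis in normal oxygen.

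The title and design name IGF2BP3 in RNA metabolism during the unfolded protein response. The series measured what loss of IGF2BP2 or IGF2BP3, a pair of RNA-binding proteins of one family, does to the mRNAs of these cells. All cells carried Cas9 under a doxycycline-inducible promoter and GFP, and each of 3 lines expressed a pair of guide RNAs with a blue fluorescent protein. The guides were directed at IGF2BP2 (sgIGF2BP2), at IGF2BP3 (sgIGF2BP3) or at the non-coding control locus AAVS1 (sgAAVS1). The sgAAVS1 line was given DMSO or 250 ng/mL doxycycline (Dox) for 72 hours. The sgIGF2BP2 and sgIGF2BP3 lines were each given DMSO, the same Dox treatment, a non-targeting siRNA (siControl) at 75 nM for 48 hours, or an siRNA pool against the gene their guides target (siIGF2BP2 or siIGF2BP3) at that dose and time. Each group has 4 libraries, from 4 wells, and every well had 250 µM 4-thiouridine in the medium for 2 hours. The lines were sorted for the blue fluorescent protein, and whether each is a pool or 1 clone is not stated. A Dox effect covers doxycycline itself, Cas9 induction and DNA cutting, which cannot be told apart within a line. The 4 libraries of a group are numbered in the labels, and whether their wells come from separate experiments is not given. The p-values measure the spread between those wells. The labels give no date or batch, and whether siRNA and DMSO wells were handled together is not given.

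Depth ran from 10018181 to 24822807 counts a library, with 13468792 as the median. Levels are given as CPM, counts scaled to a common library total, as mean ± SD with n = 4 where an SD is shown. In sgIGF2BP2 cells IGF2BP2 was at 85.3 ± 1.58 CPM in DMSO and 33.9 ± 3.502 in Dox, and at 108 ± 4.10 after siControl and 30.2 ± 1.08 after siIGF2BP2, while the means of the other groups were 89.2 to 115. In sgIGF2BP3 cells IGF2BP3 was at 180.2 ± 4.09 CPM in DMSO and 56.2 ± 3.62 in Dox, and at 169.8 ± 4.78 after siControl and 24.7 ± 1.56 after siIGF2BP3, while the other means were 151 to 179. The lowest of these, 151, was that of sgIGF2BP2 cells in Dox. So each target was lower where the label says it was depleted, and some of its mRNA remained. Because whole wells were sequenced, fewer cells with a high level and less RNA in every cell cannot be told apart. Of 9 epithelial markers of colorectal carcinoma, 4 (KRT8, KRT18, EPCAM, CDX2) were at 1 CPM or more, KRT20 had no count in any library, and CDH1, VIL1, KRT19 and LGALS4 were near 0. Summed markers of fibroblasts reached at most 1.104 CPM, of leukocytes 3.62 and of endothelium 0.455. By the chi-square statistic per gene between replicates, sgIGF2BP2 Dox replicate 2 (up to 16.6) and siIGF2BP2 replicate 3 (up to 6.45) stood farthest from their groups, against a median of 2.28 over all pairs. Counts of members called in the comparisons that hold these libraries are given with and without them.

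The glycolytic enzymes spanned a wide range of levels. Levels were divided by the kilobases of merged exons, all annotated exons of a gene joined, which can be longer than its mRNA. An order between genes by this measure is therefore approximate. Mean levels over the 40 libraries were 1535 CPM per kilobase for GAPDH, 572 for ENO1, 410 for TPI1, 369 for PKM and 151 for PGK1. Without that division PKM, at 3164 CPM, stood above ENO1, at 3016, and TPI1, at 1107. These enzymes carry out the middle and late steps of the pathway. Among isoenzymes, HK1 (36.5) stood above HK2 (22.6), the inducible hexokinase, and PFKP (44.7) above PFKM (24.8) and PFKL (17.7), the 3 phosphofructokinases. LDHA (58.5), the pyruvate-reducing subunit of lactate dehydrogenase, stood above LDHB (24.5), and ENO1 above ENO2 (37.5). The 17 enzymes together held 1.44% to 1.58% of all counts as group means, and GAPDH, PKM and ENO1 held 70.9% of that sum.

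The hypoxia-response members were lower. BHLHE40, a transcriptional repressor, was at 23.3 CPM per kilobase, HIF1A at 19.2 and ERO1A, an oxidase of the endoplasmic reticulum, at 18.0. BHLHE40, HK2, HIF1A, ERO1A and PFKL are neighbours in this order whose ranges over libraries overlap. VEGFA, the angiogenic growth factor, was at 2.87 and ANKRD37 at 0.822. The canonical low-oxygen marker CA9, a carbonic anhydrase, had 0 to 10 counts per library, and EGLN3 had 1 to 8. BNIP3, a mitophagy receptor, had no count in any of the 40 libraries, where 3 counts correspond to 0.121 to 0.299 CPM. BNIP3 has 39 named pseudogenes in GENCODE release 29, and whether its 0 reflects how reads were assigned or a silent gene was not tested. That release names 62 pseudogenes for GAPDH, 13 for PGAM1 and 1 to 6 for ALDOA, ENO1, LDHA, LDHB, PKM, TPI1, HK2, PGK1, HIF1A, EGLN1 and EGLN3, whose values are uncertain to that degree. ALDOA, at 7.16 CPM per kilobase below its paralog ALDOC at 12.5, shares exon bases on its strand with ENSG00000285043, and PGK1 shares some with ATP7A. GPI, LDHB and PFKFB4 also share bases with a gene on the same strand, and PFKM, TPI1, CA9, BNIP3L and ANKRD37 with one on the opposite strand. The libraries were made with a directional kit, but whether the counting used strand is not given in the sources used here.

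In DMSO no member was called by edgeR's quasi-likelihood test (adjusted p under 0.05) in sgIGF2BP2 or in sgIGF2BP3 cells against sgAAVS1 cells. In each case 0.0175% of all genes tested were called, which is 2 genes. For sgIGF2BP3 cells this number was 74 without sgAAVS1 DMSO replicate 4 and 35 with no filter on low counts. At an unadjusted p under 0.05 there were 2 and 9 members, beside 722 and 1327 of the 11428 genes, and DESeq2 called 0 and 0 members. So 9 of 34 members in sgIGF2BP3 cells is a greater share than that of all genes at that unadjusted level. The greatest estimate was that of DDIT4 in sgIGF2BP3 cells, 0.36 on the log2 scale (95% interval 0.043 to 0.681, adjusted p = 0.349). HIF1A differed by 0.06 (adjusted p = 0.844) and 0.09 (adjusted p = 0.439).

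The siRNA pool against IGF2BP2 gave the most member calls of the 7 treatment comparisons. P4HA2, NDRG1, ERO1A and HK2 fell most, all 3 regulatory kinases fell, and HIF1A itself fell, while PFKL and ENO2 rose. Of the 34 members tested, 19 were called (4 higher, 15 lower), against 36.8% of all genes tested (18.4% higher and 18.4% lower). The median member changed by -0.10 on the log2 scale and the median gene by 0.01. Without siIGF2BP2 replicate 3 there were 18 calls, 3 higher and 15 lower. With no overlap between the siIGF2BP2 and siControl libraries, 2 members were higher and 14 lower, beside 15.04% and 15.58% of all genes.

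P4HA2, a prolyl hydroxylase that matures collagen, had 60.7, 62.4, 59.1 and 60.1 CPM in the 4 siControl libraries of sgIGF2BP2 cells and 33.2, 31.1, 37.8 and 37.0 with siIGF2BP2. No siIGF2BP2 library reached 38 CPM, whereas each of the 9 other groups stayed at or above 54.7. The fold change was -0.79 on the log2 scale (SE 0.052, adjusted p = 7.70e-21), a level 42.4% lower.

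NDRG1, a stress-induced protein that limits metastasis in colon cancer models, had 60.5, 61.7, 68.8 and 78.1 CPM with siControl and 44.1, 39.0, 38.3 and 40.1 with siIGF2BP2. The groups did not overlap although the siControl libraries were spread widely. NDRG1 fell by 0.73 on the log2 scale (SE 0.056, adjusted p = 1.07e-17).

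ERO1A, which passes electrons from protein disulfide isomerase to oxygen during disulfide formation, had 169, 162, 167 and 164 CPM with siControl and 102, 97.4, 106 and 96.3 with siIGF2BP2. Its fold change was -0.73 (SE 0.039, adjusted p = 5.50e-25). The siIGF2BP2 libraries also lay below the 126 to 134 CPM of the same line in DMSO.

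HK2, the inducible hexokinase of the first step, had 132, 145, 148 and 145 CPM with siControl and 111, 106, 92.2 and 105 with siIGF2BP2. It fell by 0.46 on the log2 scale (SE 0.041, adjusted p = 5.38e-15), with no overlap. HK1, the constitutive hexokinase, fell by 0.17 (adjusted p = 1.33e-05).

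**Figure D1:**
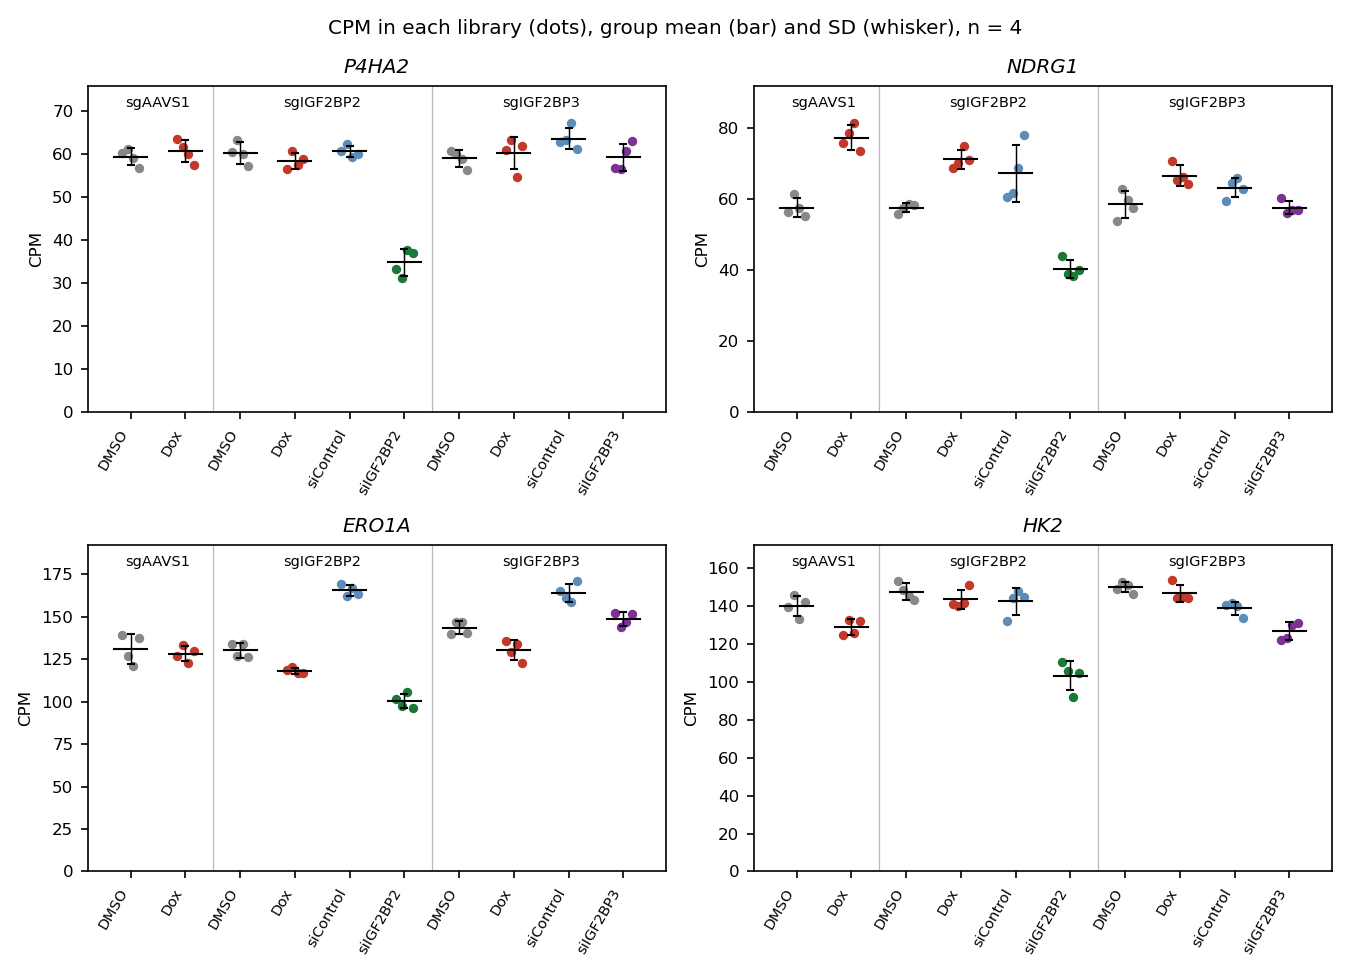
CPM of P4HA2, NDRG1, ERO1A and HK2 in every library (dots) by line and treatment, with the group mean (bar) and SD (whisker), n = 4; axes start at 0. In all 4 panels the siIGF2BP2 libraries are the lowest, and for ERO1A the siControl libraries stand above those in DMSO.

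The 3 kinases are regulators around the pathway. PFKFB3 and PFKFB4 make fructose 2,6-bisphosphate, the activator of phosphofructokinase, and PDK1 inactivates pyruvate dehydrogenase. PFKFB3 had 93.1, 87.2, 86.3 and 83.3 CPM with siControl and 68.7, 65.3, 66.6 and 76.9 with siIGF2BP2, a log2 fold change of -0.33 (SE 0.052, adjusted p = 3.49e-07). PFKFB4 had 12.7, 15.3, 16.3 and 16.7 against 12.8, 11.3, 11.6 and 13.3 CPM, which overlap, with a log2 fold change of -0.30 (SE 0.093, adjusted p = 0.00839). PDK1 changed by -0.22 (adjusted p = 0.000433).

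HIF1A had 110.2, 110.2, 108 and 103 CPM with siControl and 89.9, 95.8, 79.5 and 92.9 with siIGF2BP2. It fell by 0.27 on the log2 scale (SE 0.044, adjusted p = 1.04e-06), with the lowest value in replicate 3, and without that replicate the fall was still called. EGLN1, which was not called, changed by -0.01. BHLHE40 had 96.4, 99.8, 102 and 103 CPM against 81.6, 83.5, 77.6 and 83.0, a log2 fold change of -0.30 (SE 0.048, adjusted p = 4.90e-07).

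Not every member moved down. PFKL, the liver-type phosphofructokinase, had 154, 159, 148 and 152 CPM with siControl and 191, 185, 193 and 189 with siIGF2BP2, and rose by 0.31 on the log2 scale (SE 0.043, adjusted p = 1.86e-08). ENO2, the neuronal enolase, had 179, 191, 176 and 181 against 209, 218, 232 and 225 CPM and rose by 0.28 (SE 0.037, adjusted p = 2.94e-09). Neither pair of groups overlapped, so 1 phosphofructokinase rose while PFKP (-0.12) and PFKM (-0.09) were called lower. KDM3A, a histone demethylase, rose by 0.22 (SE 0.056, adjusted p = 0.00100) with groups that overlapped. LDHB rose by 0.16 (adjusted p = 0.0245) and LDHA fell by 0.16 (adjusted p = 0.000238). The LDHB call was lost without siControl replicate 1, siControl replicate 2 or siIGF2BP2 replicate 3 (highest adjusted p = 0.349), and the PFKM call without siControl replicate 1 or 2 or siIGF2BP2 replicate 1 or 2 (highest adjusted p = 0.111). Both calls were also lost after thinning to the smallest total, and PFKM with only the groups compared. The other 17 calls held whichever of the 8 libraries was left out. GAPDH, ENO1, PKM, TPI1, GPI and PGK1 were not called, with fold changes from -0.03 to 0.04 on the log2 scale.

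By role, 10 of 17 glycolytic enzymes were called with siIGF2BP2 (3 higher, 7 lower), 3 of 3 kinases (all lower) and 5 of 12 other hypoxia-response genes tested (1 higher, 4 lower). The share of all genes was 36.8%, to which the 5 of 12 are near. VEGFA (-0.08), ADM (-0.08), P4HA1 (-0.02), BNIP3L (-0.02) and DDIT4 (0.06) did not pass the test. A fall of P4HA2 thus stood beside a paralog, P4HA1, whose interval of -0.13 to 0.10 spans 0.

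**Figure D2:**
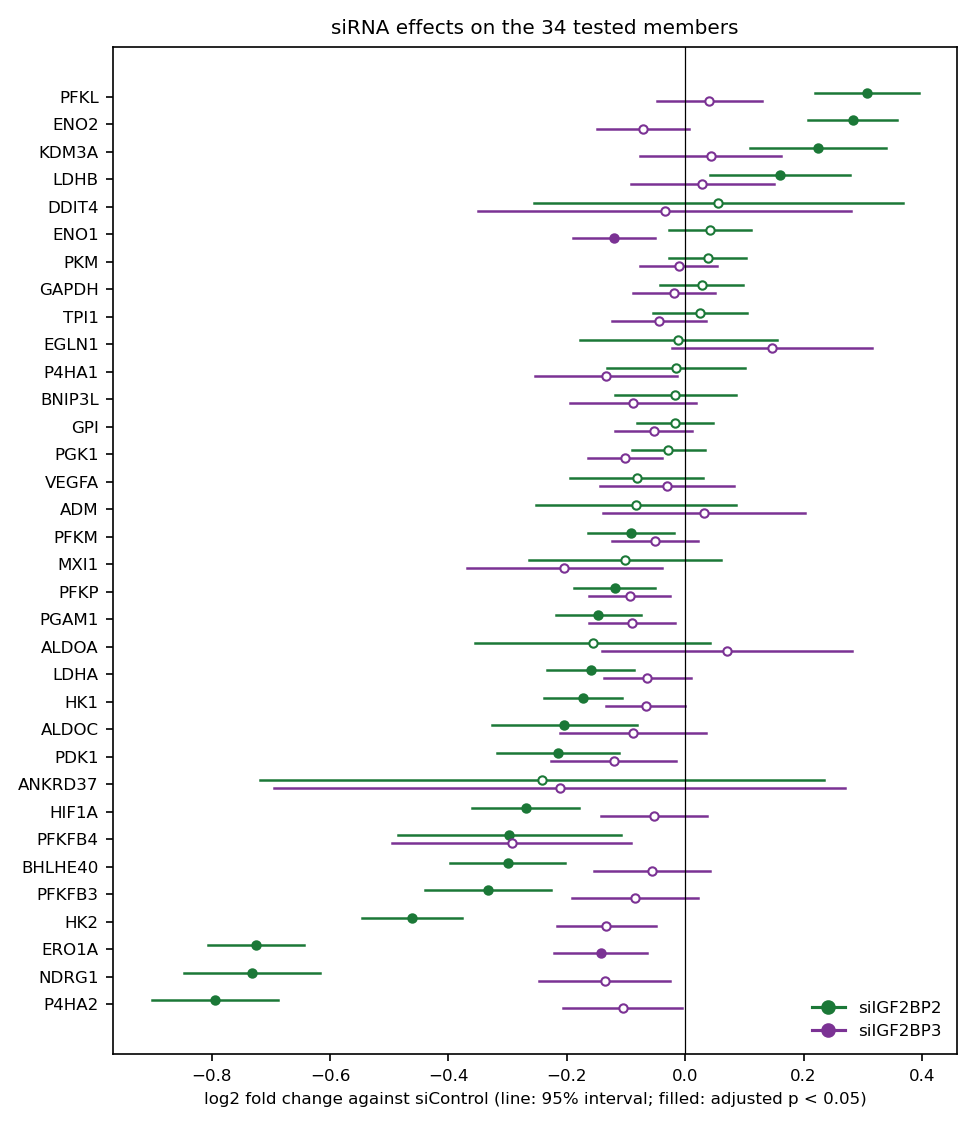
log2 fold change against siControl of the 34 tested members, in order of the siIGF2BP2 effect, with 95% intervals; green is siIGF2BP2 in sgIGF2BP2 cells, violet siIGF2BP3 in sgIGF2BP3 cells, and filled points passed the test. P4HA2, NDRG1 and ERO1A lie between -0.79 and -0.73 with siIGF2BP2 and between -0.14 and -0.11 with siIGF2BP3.

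The control of that comparison moved too. Between siControl and DMSO wells 12 members were called in sgIGF2BP2 cells (9 higher, 3 lower) and 12 in sgIGF2BP3 cells (8 higher, 4 lower). Transfection cannot be told apart from other differences between these wells. In sgIGF2BP2 cells 10 of the 12 calls held in each of 8 fits that left out 1 library. In sgIGF2BP3 cells 6 of the 12 held, and such fits gave 8 to 10 calls. Of all genes tested, 18.4% were called in the first line (10.2% higher, 8.16% lower) and 19.4% in the second (10.9% higher, 8.54% lower). ALDOC, BHLHE40, ENO2, ERO1A, HIF1A and PFKFB4 were called higher in both lines, and ALDOA, GAPDH and LDHA lower in both. The 2 lines share no library here, but these contrasts share siControl libraries with the siRNA contrasts and DMSO libraries with the Dox contrasts.

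The rises of the 6 genes called in both lines ran from 0.14 to 0.43 on the log2 scale. Of the others PFKP had the smallest, 0.10 in sgIGF2BP3 cells, a call that held in 4 of 8 fits that left out 1 library. PFKFB4 had 11.8, 9.69, 11.4 and 11.7 CPM with DMSO and 12.7, 15.3, 16.3 and 16.7 with siControl in sgIGF2BP2 cells, and rose by 0.43 (SE 0.092, adjusted p = 0.000322). In sgIGF2BP3 cells its rise of 0.27 (adjusted p = 0.0413) was lost without siControl replicate 3 or any 1 of the 4 DMSO libraries (highest adjusted p = 0.298), and DESeq2 did not make that call. ENO2 rose by 0.35 (adjusted p = 2.23e-11) and 0.33 (adjusted p = 3.42e-10), ERO1A by 0.35 (adjusted p = 5.70e-11) and 0.19 (adjusted p = 9.94e-05). ALDOC, the brain-type aldolase, rose by 0.29 in each line (adjusted p = 0.000141 and 0.000282), and BHLHE40 by 0.29 (adjusted p = 2.99e-06) and 0.23 (adjusted p = 0.000186).

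HIF1A rose by 0.15 (adjusted p = 0.0120) and 0.14 (adjusted p = 0.0149). The second call was lost without sgIGF2BP3 DMSO replicate 1 or 2 or siControl replicate 1 or 4 (highest adjusted p = 0.0597) and after thinning. NDRG1 rose by 0.21 (adjusted p = 0.00203) in sgIGF2BP2 cells, but without siControl replicate 4, at 78.1 CPM, the change was 0.14 (adjusted p = 0.0516).

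LDHA had 434, 390.2, 397 and 406 CPM with DMSO and 379.6, 348, 367 and 359 with siControl in sgIGF2BP2 cells, and changed by -0.16 (adjusted p = 0.000470) there and by -0.24 (adjusted p = 2.16e-07) in sgIGF2BP3 cells. ALDOA changed by -0.37 (adjusted p = 0.00224) and -0.60 (adjusted p = 2.46e-06), with the counting overlap named above. GAPDH changed by -0.17 and -0.10; the second call was lost when sgIGF2BP3 DMSO replicate 1 or 3 or siControl replicate 1 or 2 was left out (highest adjusted p = 0.0730).

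Set against DMSO of the same line, the members that siIGF2BP2 lowered fall into sets by level; all 15 are placed here. With siIGF2BP2, P4HA2 (31.1 to 37.8 CPM against 57.2 to 63.2 in DMSO), NDRG1 (38.3 to 44.1 against 55.8 to 58.6), ERO1A (96.3 to 106 against 126 to 134), HK2 (92.2 to 111 against 143 to 153) and PFKFB3 (65.3 to 76.9 against 81.0 to 95.9) were below every DMSO library. So were the enzymes HK1 (203 to 213 against 235 to 248), LDHA (314 to 337 against 390.2 to 434) and, narrowly, PFKP (204 to 209.9 against 211 to 220.04). BHLHE40 (77.6 to 83.5 against 79.4 to 88.3), PDK1 (44.1 to 51.4 against 46.7 to 50.7), ALDOC (34.3 to 39.3 against 32.4 to 36.2) and PFKFB4 (11.3 to 13.3 against 9.69 to 11.8) overlapped the DMSO range. HIF1A (79.5 to 95.8 against 93.8 to 101) overlapped it by its highest library. PFKM (173 to 181 against 176 to 186) and PGAM1 (211 to 245 against 229 to 249) also overlapped it. These ranges are a description, and no test was run on them. The members were chosen because their siIGF2BP2 values were low, which favours values below DMSO. The share of all genes that lie below DMSO in this way was not computed.

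The siRNA pool against IGF2BP3 gave few member calls, while most estimates were small and below 0. ENO1 fell by 0.12 on the log2 scale (SE 0.034, adjusted p = 0.0377) and ERO1A by 0.14 (SE 0.038, adjusted p = 0.0239), and these 2 of 34 stood against 2.34% of all genes called (0.936% higher, 1.4% lower). ENO1 had 3079.5, 3035, 3139.9 and 2960.0 CPM with siControl and 2742, 2754, 2809.9 and 2937 with siIGF2BP3, just short of overlap. Leaving out 1 library at a time gave 0 to 3 calls, with 0 without siControl replicate 1 or siIGF2BP3 replicate 2 or 3. It gave 1 call without siControl replicate 2, siControl replicate 3 or siIGF2BP3 replicate 1. DESeq2 called 4 members, all lower, with HK2 and PGK1 added. Of the 34 edgeR estimates, 28 were below 0, with a median of -0.07, against 0.002 for the median gene. At an unadjusted p under 0.05 in edgeR there were 13 members, beside 1578 of the 11428 genes. With no overlap between groups, 7 members were lower and 0 higher, beside 5.4% and 4.56% of all genes. HIF1A changed by -0.05 (adjusted p = 0.659).

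The difference between the siRNA effects was tested directly. Of the 34 members, 10 were called, 7 with a higher and 3 with a lower siIGF2BP3 effect, against 18.7% of all genes tested (9.88% higher, 8.82% lower), and all 10 calls held in each of 16 fits that left out 1 library (11 were called without siIGF2BP2 replicate 3). After thinning to the smallest total the PFKFB3 call was lost. Relative to siIGF2BP2, the siIGF2BP3 effect was higher by 0.69 for P4HA2 (adjusted p = 7.63e-12), 0.60 for NDRG1 (adjusted p = 1.30e-08), 0.58 for ERO1A (adjusted p = 1.94e-13) and 0.33 for HK2 (adjusted p = 1.21e-05). It was higher by 0.25 for PFKFB3 (adjusted p = 0.0109), 0.24 for BHLHE40 (adjusted p = 0.00621) and 0.22 for HIF1A (adjusted p = 0.00875). The difference had the opposite sign for ENO2, at -0.36 (adjusted p = 3.21e-07), PFKL, at -0.27 (adjusted p = 0.000759), and ENO1, at -0.16 (adjusted p = 0.0114). The pools were applied in different lines, each with its own siControl libraries.

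Several abundant enzymes were lower and several hypoxia-response genes higher with Dox than with DMSO, in the control line as well as in sgIGF2BP2 cells. PKM, also abundant, was higher in both. In sgAAVS1 cells 14 of 34 members were called (6 higher, 8 lower), against 15.9% of all genes (7.25% higher, 8.68% lower). In sgIGF2BP2 cells 12 were called (5 higher, 7 lower), against 20.4% of all genes (10% higher, 10.4% lower), and 14 without Dox replicate 2 (5 higher, 9 lower). In sgIGF2BP3 cells 4 were called (3 higher, 1 lower), against 2.64% of all genes (1.64% higher, 1.01% lower). Without sgAAVS1 DMSO replicate 2 or Dox replicate 1 the first count was 9. For sgIGF2BP3 cells the count was 1 to 3 when any 1 library was left out, and 1 after thinning all libraries to the smallest total.

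The enzymes moved as follows. GAPDH had 4742, 5085, 5095 and 4864 CPM with DMSO and 4271, 4092, 4303 and 4239.7 with Dox in sgAAVS1 cells, and changed by -0.23 (SE 0.034, adjusted p = 8.08e-07). It changed by -0.12 (adjusted p = 0.00754) in sgIGF2BP2 cells, a call lost without Dox replicate 4 (adjusted p = 0.0505). In sgIGF2BP3 cells the 4 Dox libraries, 4715, 4744, 4849 and 4968 CPM, overlapped those in DMSO, 4829.6, 4741, 4776 and 4653.

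ENO1 had 3228, 3296, 3178 and 3044 CPM with DMSO and 2696, 2747, 2769 and 2755 with Dox in sgAAVS1 cells, with no overlap and a log2 fold change of -0.22 (SE 0.034, adjusted p = 1.77e-06). In sgIGF2BP2 cells it changed by -0.13 (adjusted p = 0.00227). LDHA had 396, 398, 404 and 396 CPM against 362, 343, 345 and 340.1 in sgAAVS1 cells, a change of -0.20 (SE 0.036, adjusted p = 3.09e-05). In sgIGF2BP2 cells LDHA fell by 0.29 (SE 0.036, adjusted p = 1.86e-09), and the difference of -0.09 between these effects was not called (adjusted p = 0.272).

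Of the 17 enzymes, 8 were called lower and 1 higher in sgAAVS1 cells, beside 8.68% lower and 7.25% higher of all genes. In sgIGF2BP2 cells 6 were lower and 1 higher, beside 10.4% and 10% of all genes, and in sgIGF2BP3 cells 0 were lower and 2 higher, beside 1.01% and 1.64%. A single enzyme called higher is thus no more than the share of all genes in the first and second of these lines. TPI1 (-0.15), GPI (-0.14), HK2 (-0.12), PGK1 (-0.09) and ALDOA (-0.27) were the other members called lower in sgAAVS1 cells. The HK2, PGK1 and ALDOA calls were each lost without 2 or 4 of the 8 libraries, always including DMSO replicate 2 and Dox replicate 1, with adjusted p up to 0.568 for ALDOA. ALDOA was also not called by DESeq2 or after thinning, and PGK1 not without the low-count filter. That DMSO library had 43.5 CPM of ALDOA and the other 3 had 26.6 to 30.6, and without it the change was -0.09. In sgIGF2BP2 cells PGAM1 (-0.19), PGK1 (-0.14) and PFKM (-0.12) were the remaining enzymes called lower.

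The enzyme that rose was PKM, pyruvate kinase, in all 3 lines. In the control line it had 3126, 3280.3, 3132 and 2962 CPM with DMSO and 3414, 3442, 3452 and 3463 with Dox. In sgIGF2BP2 cells it had 3048, 3125, 2982 and 3068 against 3271, 3413, 3312 and 3196. In sgIGF2BP3 cells it had 3109, 3002, 2982 and 2937 against 3362, 3386, 3316 and 3526. No Dox library overlapped the DMSO libraries of its line. Of all genes tested, 8.04%, 8.92% and 5.76% were higher with no overlap in these lines. The log2 fold changes were 0.14 (adjusted p = 0.00106), 0.11 (adjusted p = 0.00852) and 0.18 (adjusted p = 0.000227). With only the groups compared, the call in sgIGF2BP2 cells was lost. PKM was not called in any siRNA or siControl comparison.

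**Figure D3:**
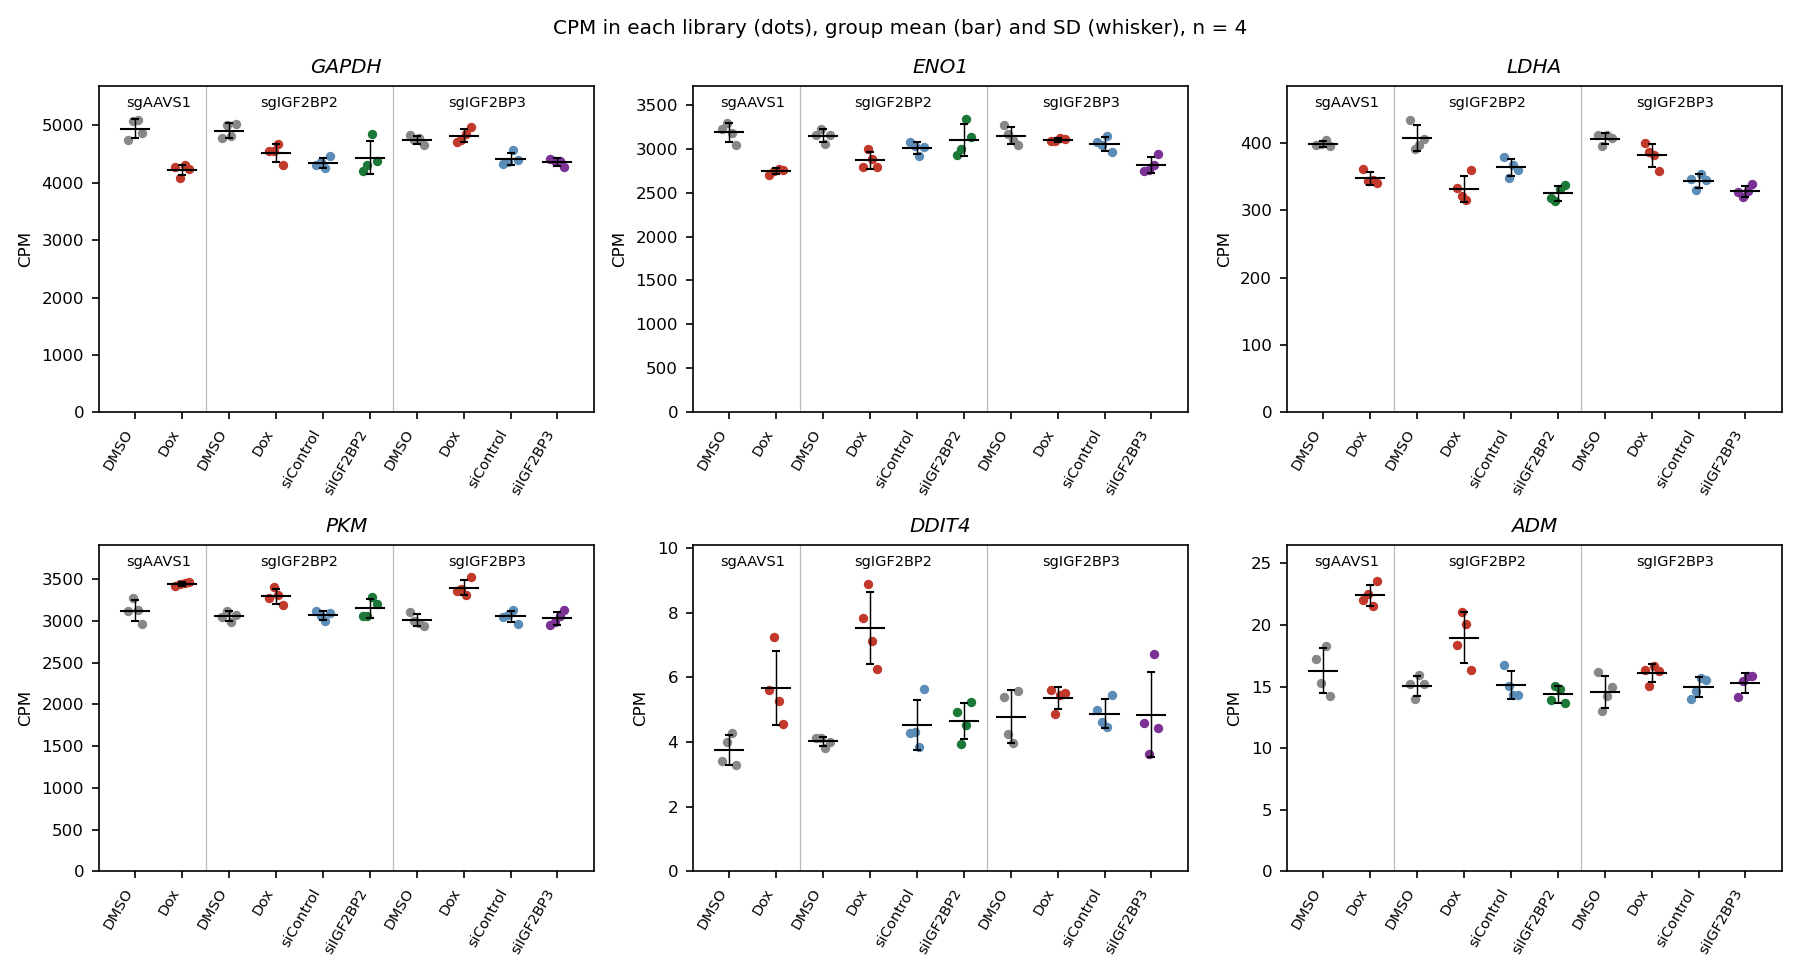
CPM of 4 enzymes (GAPDH, ENO1, LDHA, PKM) and 2 hypoxia-response genes (DDIT4, ADM) in every library by line and treatment, with group mean and SD, n = 4; axes start at 0. With Dox, PKM is above DMSO in each line, while GAPDH and ENO1 are below DMSO in sgAAVS1 and sgIGF2BP2 cells and overlap it in sgIGF2BP3 cells.

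Among hypoxia-response genes, NDRG1 rose with Dox in each line. It had 56.4, 61.4, 57.5 and 55.2 CPM with DMSO and 75.8, 78.7, 81.3 and 73.6 with Dox in sgAAVS1 cells, a log2 fold change of 0.42 (SE 0.053, adjusted p = 8.78e-09). In sgIGF2BP2 cells the change was 0.30 (SE 0.053, adjusted p = 1.40e-05). In sgIGF2BP3 cells it was 0.19 (SE 0.054, adjusted p = 0.0439), a call that held in 1 of 8 fits that left out 1 library (only without DMSO replicate 2; highest adjusted p = 0.180). The same mRNA thus rose with Dox in sgIGF2BP2 cells and fell with siIGF2BP2.

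DDIT4, an inhibitor of mTORC1 induced by hypoxia and by DNA damage, was a low-abundance gene with 3.41, 4.00, 4.27 and 3.30 CPM with DMSO and 5.60, 7.25, 5.27 and 4.55 with Dox in sgAAVS1 cells. Its log2 fold change was 0.60 (SE 0.157, adjusted p = 0.00459), and 0.47 (adjusted p = 0.0511) without Dox replicate 2. In sgIGF2BP2 cells it had 4.14, 4.12, 3.83 and 4.01 against 7.83, 8.90, 7.12 and 6.25 CPM, a log2 fold change of 0.93 (SE 0.143, adjusted p = 7.47e-07). ADM, the secreted vasodilator adrenomedullin, had 17.3, 15.3, 18.3 and 14.3 against 22.1, 22.5, 21.5 and 23.6 CPM in sgAAVS1 cells and rose by 0.47 (SE 0.078, adjusted p = 5.24e-06). In sgIGF2BP2 cells ADM rose by 0.32 (SE 0.079, adjusted p = 0.00153). In sgIGF2BP3 cells the changes of DDIT4 (0.16, adjusted p = 0.637) and ADM (0.14, adjusted p = 0.393) were not called.

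BHLHE40 rose in sgIGF2BP2 cells, where it had 80.9, 79.4, 79.8 and 88.3 CPM with DMSO and 113, 92.7, 110.5 and 109 with Dox, a log2 fold change of 0.37 (SE 0.048, adjusted p = 1.11e-08). The low Dox value is that of replicate 2, and the groups did not overlap. MXI1, a MYC antagonist, rose by 0.23 (adjusted p = 0.0364) in sgAAVS1 cells. The MXI1 call held in 2 of 8 fits that left out 1 library, those without DMSO replicate 4 or Dox replicate 4 (highest adjusted p = 0.140), and DESeq2 did not make it. BNIP3L, a mitophagy receptor, changed by 0.18 (adjusted p = 0.0134) there. That call was lost without DMSO replicate 2 or 3 or Dox replicate 1 (highest adjusted p = 0.0584) and after thinning. ERO1A was called lower by Dox in both knockout lines, with -0.14 in each (adjusted p = 0.00678 and 0.0323). Neither change was called different from that in sgAAVS1 cells, -0.03, with differences of -0.11 in each line (adjusted p = 0.256 and 0.228). The call in sgIGF2BP3 cells was lost without DMSO replicate 2 or 3 or Dox replicate 2 or 4 (highest adjusted p = 0.217). ALDOC rose by 0.21 (adjusted p = 0.0455) in sgIGF2BP3 cells, a call that held only without Dox replicate 1 among the 8 such fits (highest adjusted p = 0.227). HIF1A was not called with Dox. Its change was 0.09 in the control line (adjusted p = 0.197), -0.06 in sgIGF2BP2 cells (adjusted p = 0.390) and -0.05 in sgIGF2BP3 cells (adjusted p = 0.621).

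Genes of the p53 response, a list that holds no member, moved with Dox as well. Of 17 listed p53 targets tested, 11 were called higher in sgAAVS1 cells, 17 in sgIGF2BP2 cells and 11 in sgIGF2BP3 cells, and none lower. Of all genes, 7.25%, 10% and 1.64% were called higher in these lines. In the difference of Dox effects from sgAAVS1 cells, 13 of the 17 targets were higher in sgIGF2BP2 cells, beside 4.01% of all genes. In sgIGF2BP3 cells 2 were higher and 1 lower, beside 4.53% and 3.25%. With siControl 8 targets were called higher in each line (1 lower in sgIGF2BP3 cells). With siIGF2BP2 5 were higher and 5 lower, and with siIGF2BP3 1 higher and 1 lower. The shares of all genes called higher were 10.2% and 10.9% with siControl, 18.4% with siIGF2BP2 and 0.936% with siIGF2BP3. Called lower were 8.54% with siControl in sgIGF2BP3 cells, 18.4% with siIGF2BP2 and 1.4% with siIGF2BP3. Of 15 targets of ATF4 and CHOP, factors of the integrated stress response, 1 was called higher and 1 lower with Dox in sgAAVS1 cells. With Dox in sgIGF2BP2 cells 4 were higher and 3 lower, with siIGF2BP2 3 and 3, and with siControl 1 to 2 in each direction. The shares called in either direction were 13.3%, 46.7%, 40% and, in each siControl line, 20%. Those of all genes were 15.9%, 20.4%, 36.8% and, with siControl, 18.4% and 19.4%. Only Dox in sgIGF2BP2 cells was thus not near the share of all genes. Their part in the changes of the members was not tested.

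The knockout lines were compared with sgAAVS1 by the difference between Dox effects. In sgIGF2BP2 cells 3 members differed, 1 higher and 2 lower, against 6.97% of all genes (4.01% higher, 2.97% lower). These 3 are 8.82% of the 34 members tested, near the share of all genes. They were BHLHE40 by 0.27 (SE 0.068, adjusted p = 0.00750), BNIP3L by -0.24 (adjusted p = 0.0285) and PDK1 by -0.23 (adjusted p = 0.0414). The BHLHE40 difference held in all 16 fits that left out 1 library, and without sgIGF2BP2 Dox replicate 2 there were 2 calls. BNIP3L held in 10 and PDK1 in 8 of the 16 fits, with adjusted p up to 0.0733 and 0.0992, and both were lost after thinning. Only BHLHE40 was left without sgAAVS1 DMSO replicate 2 or 3, sgIGF2BP2 DMSO replicate 1 or sgIGF2BP2 Dox replicate 3. BNIP3L had 42.5, 41.2, 40.9 and 45.1 CPM in sgAAVS1 cells with DMSO. With DMSO it had 50.4, 46.1, 46.8 and 48.2 in sgIGF2BP2 cells and 46.8, 46.3, 48.0 and 49.9 in sgIGF2BP3 cells. The difference of sgIGF2BP2 from sgAAVS1 cells in DMSO was estimated at 0.17 and was not called (adjusted p = 0.614). No glycolytic enzyme was called in this comparison, with the greatest estimates for PGAM1 (-0.12, adjusted p = 0.130) and GAPDH (0.11, adjusted p = 0.172). The Dox changes of GAPDH, ENO1, LDHA, NDRG1, DDIT4 and ADM in sgIGF2BP2 cells were thus not called different from those in sgAAVS1 cells, whose libraries enter both.

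In sgIGF2BP3 cells 6 members differed from sgAAVS1 cells in the Dox effect, 4 enzymes higher and 2 hypoxia-response genes lower, against 7.78% of all genes (4.53% higher, 3.25% lower). The differences were 0.25 for GAPDH (SE 0.048, adjusted p = 0.000404), 0.20 for ENO1 (SE 0.048, adjusted p = 0.00597), 0.18 for GPI (SE 0.045, adjusted p = 0.00602) and 0.17 for TPI1 (adjusted p = 0.0454). They were -0.29 for BNIP3L (SE 0.074, adjusted p = 0.00889) and -0.24 for NDRG1 (adjusted p = 0.0384). The GAPDH, ENO1, GPI and BNIP3L calls held in all 16 fits that left out 1 library, but after thinning to the smallest total the BNIP3L and NDRG1 calls were lost. TPI1 held in 4 and NDRG1 in 5, with adjusted p up to 0.120 and 0.107. HIF1A differed by -0.14 in each knockout line (adjusted p = 0.158 and 0.176).

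siRNA and Dox effects on the same target were compared in a contrast added after the values were seen. In sgIGF2BP2 cells 17 of 34 members differed between the siIGF2BP2 and the Dox effect, 6 with a higher and 11 with a lower siRNA effect, against 26.1% of all genes (12.4% higher, 13.7% lower). There were 18 without Dox replicate 2 and 15 without siIGF2BP2 replicate 3. The difference was -1.033 for NDRG1 (SE 0.078, adjusted p = 1.37e-17), -0.87 for DDIT4 (adjusted p = 0.000923), -0.76 for P4HA2 (adjusted p = 1.54e-13), -0.67 for BHLHE40 (adjusted p = 1.50e-12) and -0.59 for ERO1A (adjusted p = 1.67e-13). P4HA2 itself had 56.5, 60.7, 57.4 and 58.8 CPM with Dox, which overlapped DMSO. HK2 had 141, 140.3, 142 and 151 CPM with Dox, also overlapping DMSO, and differed by -0.42 (adjusted p = 1.63e-08). In sgIGF2BP3 cells 2 members differed, both with a lower siRNA effect, against 1.36% of all genes (0.884% lower). They were NDRG1 by -0.32 (adjusted p = 0.0120) and PKM by -0.19 (adjusted p = 0.0142). The PKM call was lost without Dox replicate 4 (adjusted p = 0.0572) and the NDRG1 call after thinning. Dose, duration and the remaining mRNA differ between siRNA and Dox, so these values are set side by side. The Dox effects here also include whatever Dox did in sgAAVS1 cells, which this contrast does not subtract. There NDRG1 (0.42) and DDIT4 (0.60) were called higher and HK2 lower, while P4HA2, BHLHE40 and ERO1A were not called. PKM was called higher with Dox in all 3 lines.

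**Figure D4:**
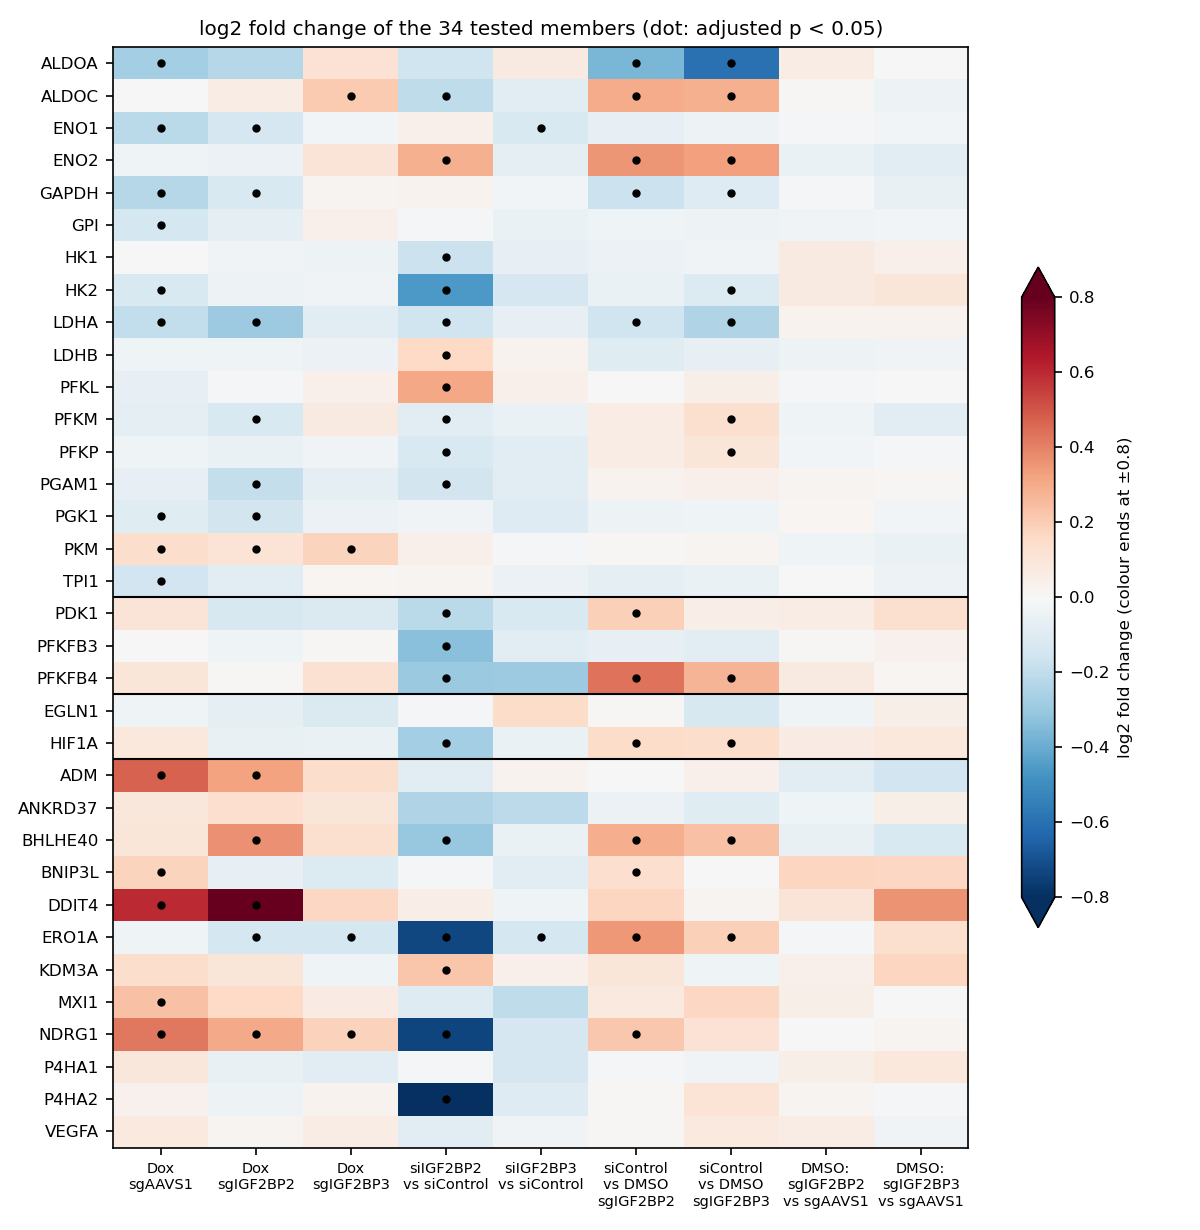
log2 fold change (colour, ends at ±0.8) of the 34 tested members in 9 comparisons, grouped by role with black lines; black dots mark adjusted p under 0.05. The siIGF2BP2 column holds 19 dots, the siIGF2BP3 column 2 and the DMSO columns between lines 0; PKM is marked in each of the 3 Dox columns.

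Across the 7 treatment comparisons, ANKRD37, EGLN1, P4HA1 and VEGFA were called in none. VEGFA was between 36.6 and 46.0 CPM in all 40 libraries.

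The sequence before the RefSeq start is shown for members with the greatest called changes in the siRNA and Dox comparisons. P4HA2, ERO1A and HK2 were called lower with siIGF2BP2, where DDIT4 and ADM were not called. DDIT4 and ADM were called higher with Dox in sgAAVS1 and sgIGF2BP2 cells. HIF binds a core of ACGTG or GCGTG, searched on both strands in the 250 bases before the start given by RefSeq (GRCh38.p14). The promoter table matched 34 of the 37 members, not NDRG1, BNIP3L or VEGFA. A core was found in 23 of 34 members, 10 of 17 enzymes, 2 of 3 kinases, 2 of 3 HIF pathway genes and 9 of 11 other hypoxia-response genes, against 43.1% of all 27305 promoters in the table. The shown sequences run 5′ to 3′ on the gene's strand, ending at the base before the start, and capitals mark a core match on either strand (CACGT and CACGC are the reverse strand's; a CACGTG would match on both strands and none is shown here). P4HA2 lies at chr5:132227092-132227341 (reverse strand), ERO1A at chr14:52695559-52695808 (reverse), HK2 at chr2:74833877-74834126 (forward), DDIT4 at chr10:72273674-72273923 (forward) and ADM at chr11:10304823-10305072 (forward).
P4HA2: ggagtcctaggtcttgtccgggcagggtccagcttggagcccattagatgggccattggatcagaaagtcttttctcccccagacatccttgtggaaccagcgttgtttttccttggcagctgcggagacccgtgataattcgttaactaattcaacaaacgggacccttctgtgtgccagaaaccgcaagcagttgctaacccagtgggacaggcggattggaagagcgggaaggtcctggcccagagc
ERO1A: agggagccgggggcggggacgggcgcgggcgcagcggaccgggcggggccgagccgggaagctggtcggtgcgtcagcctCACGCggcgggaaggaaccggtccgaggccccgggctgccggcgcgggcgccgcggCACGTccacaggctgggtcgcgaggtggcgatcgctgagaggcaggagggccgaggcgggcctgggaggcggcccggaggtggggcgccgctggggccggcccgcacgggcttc
HK2: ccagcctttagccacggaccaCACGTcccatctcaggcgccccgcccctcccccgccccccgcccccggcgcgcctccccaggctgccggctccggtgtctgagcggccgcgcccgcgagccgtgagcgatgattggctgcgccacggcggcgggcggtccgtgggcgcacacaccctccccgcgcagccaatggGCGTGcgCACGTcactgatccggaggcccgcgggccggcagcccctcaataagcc
DDIT4: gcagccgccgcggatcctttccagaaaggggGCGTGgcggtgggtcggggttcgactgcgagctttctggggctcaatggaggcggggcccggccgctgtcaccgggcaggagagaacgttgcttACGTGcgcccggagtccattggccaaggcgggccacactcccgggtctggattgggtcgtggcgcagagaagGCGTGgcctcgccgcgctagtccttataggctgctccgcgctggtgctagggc
ADM: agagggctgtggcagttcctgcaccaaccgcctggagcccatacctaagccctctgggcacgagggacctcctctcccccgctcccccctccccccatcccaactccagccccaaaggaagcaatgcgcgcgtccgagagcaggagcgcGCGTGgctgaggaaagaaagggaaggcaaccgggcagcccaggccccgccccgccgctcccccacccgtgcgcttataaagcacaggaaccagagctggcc
These starts are RefSeq's. GENCODE release 29 begins the P4HA2 gene farther upstream, at base 132295315, so the P4HA2 window lies within that gene model. The ERO1A and ADM windows also lie within their GENCODE genes (first bases 52695900 and 10304680), and the HK2 window spans the GENCODE start at 74833981. P4HA2, which fell most with siIGF2BP2, had no core in this window, while ERO1A had 2, HK2 and DDIT4 had 3 each and ADM had 1. Members with matches moved in both directions with siIGF2BP2 and with Dox. G and C made up 54.8% of the P4HA2 window and 68% to 81.6% of the other 4, and a match is a description of letters, not of binding.

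Genes of the same pathway outside the list were taken from 66 further symbols, 56 of them tested. With siIGF2BP2 30 were called, 10 higher and 20 lower. These are 53.6% of the 56, against 36.8% of all genes (18.4% in each direction), so the number higher is near the share of all genes. Of 24 genes of glucose and lactate handling, 5 were called higher and 14 lower. PDP1, which reactivates pyruvate dehydrogenase and so opposes PDK1, changed by -0.75 (adjusted p = 5.97e-15), SLC16A1, the lactate carrier MCT1, by -0.57 (adjusted p = 1.44e-07), and GBE1, the glycogen branching enzyme, by -0.44 (adjusted p = 3.05e-10). MPC1, a subunit of the mitochondrial pyruvate carrier, changed by 0.54 (adjusted p = 1.67e-06). Of 9 HIF regulators tested, 2 were called higher and 1 lower, and of 23 further reported HIF targets, 3 were called higher and 5 lower.

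With Dox, 13 of the 56 were called in sgAAVS1 cells (7 higher, 6 lower), 13 in sgIGF2BP2 cells (9 higher, 4 lower) and 3 in sgIGF2BP3 cells (1 higher, 2 lower). The shares of all genes were 15.9%, 20.4% and 2.64%, and 13 of 56 is 23.2%, near that of all genes in sgIGF2BP2 cells. SLC16A3, the lactate exporter MCT4, changed by -0.37 (adjusted p = 7.05e-10) in sgAAVS1 cells. PDP1 changed by -0.34 (adjusted p = 0.000218) in sgAAVS1 and by 0.69 (adjusted p = 1.51e-13) in sgIGF2BP2 cells, and the difference between these effects was 1.026 (adjusted p = 5.38e-13). SLC2A3, the glucose transporter GLUT3, rose with siControl by 0.70 (adjusted p = 2.04e-09) and 0.69 (adjusted p = 5.66e-09) in the 2 lines. With siIGF2BP3 5 of the 56 were called, all lower, against 1.4% of all genes called lower, among them SLC16A1 by -0.34 (adjusted p = 0.0105).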

How the data were processed

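Gene counts were deposited by the authors as 1 table of whole-number counts per gene and library, with 40 libraries in 10 groups of 4. Per the submitters' processing notes, bcl2fastq 2.20.0.422, STAR 2.7.5c and the genome build hg38 were used. The counting tool, its annotation and its use of strand are not given in the sources used here. Per the labels' protocols, each library is poly(A) RNA of 1 well of a 24-well plate, made with a directional kit.

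Counts were analysed with edgeR 4.0.16 (limma 3.58.1, R 4.3.3). Of 19962 genes, filterByExpr kept 11428, which hold 99.98% of counts. TMM factors were 0.978 to 1.0304. A quasi-likelihood model with 1 coefficient per group was fitted to all 40 libraries, p-values were adjusted by Benjamini-Hochberg over all genes tested, and a call is an adjusted p under 0.05. CPM values use TMM library sizes. Standard errors are the fold change over the square root of F, and 95% intervals use 30 residual degrees of freedom. The biological coefficient of variation was 3.79%. The script was tested on simulated data with known changes. Symbols were found for 19895 IDs and GENCODE release 29 entries for 19847, whose merged exons gave lengths and whose models gave overlaps.

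The members and gene lists were chosen with earlier results of these data known. Members called with a log2 change of at least 0.2 are named (at most 8 in each direction per comparison), with HIF1A in each treatment comparison. Up to 3 rises and falls per comparison are named among other pathway genes. Members named beyond this rule were chosen after their values were seen. Marker lists for epithelium, fibroblasts, leukocytes and endothelium and stress lists for p53 and for ATF4 and CHOP were checked. Whether the wells of a group come from separate experiments is not given, and p-values measure the spread between them, which may be technical.

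Alternatives were DESeq2 1.42.0, its size factors (RLE) in edgeR, no filter on low counts, only the groups compared, a replicate block, thinning to the smallest total and leaving out each library. The 2 contrasts of siRNA against Dox effects were added after seeing the data. Tables and figures used Python 3.11.15, pandas 2.3.3 and matplotlib 3.10.9.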

Additional observations from a re-analysis of the deposited data

Results flagged for a closer look

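In 74 groups of 4 libraries checked, chance alone would give about 1 in 20 with a library this far from the rest. One library stood apart in 2 of them: ALDOA in sgAAVS1 Dox replicate 3 was at 28.6 CPM with the next library at 26.2, and BHLHE40 in sgIGF2BP2 DMSO replicate 4 was at 88.3 CPM with the next at 80.9.

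The other 19 results differed between groups by a test of the difference itself, on the log2 scale. The Dox effect in sgIGF2BP2 cells differed from that in sgAAVS1 cells by 0.27 for BHLHE40, -0.24 for BNIP3L and -0.23 for PDK1. In sgIGF2BP3 cells it differed by 0.25 for GAPDH, 0.20 for ENO1, 0.18 for GPI, 0.17 for TPI1, -0.29 for BNIP3L and -0.24 for NDRG1.

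The siIGF2BP3 effect differed from the siIGF2BP2 effect by 0.69 for P4HA2, 0.60 for NDRG1, 0.58 for ERO1A, 0.33 for HK2, 0.25 for PFKFB3, 0.24 for BHLHE40 and 0.22 for HIF1A. For ENO2, PFKL and ENO1 it differed by -0.36, -0.27 and -0.16. The adjusted p of each is in the results above.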

How the results depend on the processing

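Of 54 named calls, 42 held under every alternative that touched them. Over all named results, 936 of 1004 alternative values kept their side of the threshold, 68 lost the call and 0 changed sign.

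Without the low-count filter, 4 genes differed between lines in DMSO for sgIGF2BP2 and 35 for sgIGF2BP3, against 2 each. DESeq2 called 7 genes in the latter and 4 members with siIGF2BP3. With only the groups compared, Dox in sgIGF2BP3 cells called 477 genes (302 with all groups), siIGF2BP3 465 genes (267) and 4 members (2), the sgIGF2BP3 DMSO comparison 4 genes, and siIGF2BP3 against Dox 284 genes (155) and 4 members (2). After thinning, Dox in sgIGF2BP3 cells called 176 genes and 1 member, siIGF2BP3 1 member, the sgIGF2BP3 DMSO comparison 1 gene, the sgIGF2BP2 Dox difference 1 member, and siIGF2BP3 against Dox 84 genes. The cause was not tested beyond the lower depth or the smaller number of libraries that these settings use.

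Leaving out 1 library gave 9 to 13 members for Dox in sgAAVS1 cells, 1 to 3 members and 108 to 285 genes for Dox in sgIGF2BP3 cells, and 0 to 3 members for siIGF2BP3. It gave 1 to 3 members for the sgIGF2BP2 Dox difference, 428 to 1415 genes for the sgIGF2BP3 Dox difference (889 with all), 1 to 4 members for siIGF2BP3 against Dox, 1 to 2 genes for sgIGF2BP2 in DMSO and 1 to 74 for sgIGF2BP3 in DMSO. The lowest of 428 was without sgIGF2BP3 Dox replicate 4 and the highest, 1415, and the 74 genes were without sgAAVS1 DMSO replicate 4. Each other count stayed within 1.5 times of that with all libraries. The span from lowest to highest could be wider. Among these were 534 to 1161 genes for the sgIGF2BP2 Dox difference (797 with all) and 4 to 9 members for the sgIGF2BP3 Dox difference (6 with all).

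Replicate numbers showed little sign of pairing the samples: the 36 correlations of same-numbered deviations ran from -0.0896 to 0.0966. Small correlations cannot exclude shared handling. With a replicate block the sgIGF2BP3 DMSO comparison called 6 genes and the sgIGF2BP3 Dox difference 7 members against 6. It moved no other count by more than 1.5 times. CA9 and EGLN3 had few counts and BNIP3 had none, so no change could be tested for them.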
